A study of Homo sapiens with 3 samples.

Results

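Transcripts of 10 splicing regulators, PTBP1, PTBP2, PTBP3, MBNL1, MBNL2, MBNL3, QKI, CELF1, TIA1 and TIAL1, were examined for C-to-U edit clusters called in cells with an RBFOX2-APOBEC1 fusion protein. A cluster was taken as a member when the deposited name of its exon or intron was that of one of these genes. This gave 28, 32 and 22 clusters in replicates 1, 2 and 3, or 82 of 40843 clusters over the series, in 9 of the 10 genes. MBNL2 had no cluster in any replicate. In the same order of replicates, the members were 0.196%, 0.211% and 0.194% of all clusters and held 0.124%, 0.142% and 0.130% of all edited bases.

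The series holds 3 replicates of 1 condition and no control samples. Without a control, clusters left by the fusion cannot be told apart from off-target editing, genetic variation or sequencing errors. The paper names these as sources of false positives and recommends that clusters be seen in several replicates. The cells, HEK293T in the sample titles, were HEK293XT by their source, a lenti-X derivative of the embryonic kidney line HEK293T with a wild-type genotype, in which doxycycline induced the fusion of RBFOX2 to the cytidine deaminase APOBEC1 for 72 h. The labels give the treatment as transient transfection although the growth protocol speaks of stable lines, and while the study calls the replicates biological, the labels do not say whether they were separate cultures, so the spread between them may be technical. The deposited clusters hold 1637592, 1731304 and 1104249 reads in replicates 1, 2 and 3, and these are reads inside clusters, not the depth of the libraries.

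RBFOX2 binds GCAUG in RNA and regulates exon inclusion, and in this assay APOBEC1 converts C to U near the places where the fusion protein sits. PTBP proteins bind pyrimidine-rich RNA and mostly repress exons. MBNL proteins and CELF1 act on many of the same muscle and brain exons, often in opposite directions. QKI binds ACUAA-type elements through its KH domain, and TIA1 and TIAL1 bind U-rich RNA downstream of weak 5' splice sites and also act in stress granules. Splicing regulators of these families are known to regulate each other's transcripts. Messenger RNA was profiled here, so a cluster in one of these genes marks apparent editing of its transcript and says nothing about the protein's own activity. No sequence of the genome build of these clusters was used here, so motifs within them were not examined.

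CELF1 carried the most clusters, with 3, 9 and 4 in replicates 1, 2 and 3 (5.33 ± 3.21, SD, n = 3). QKI followed with 4, 5 and 5 (4.67 ± 0.577) and was the gene whose number varied least relative to its mean. MBNL1 had 5, 6 and 0, TIA1 had 5, 2 and 4, and PTBP3 had 3, 5 and 2. Fewer clusters fell in PTBP1 (4, 1 and 3), TIAL1 (2, 3 and 2), PTBP2 (2, 0 and 1) and MBNL3 (0, 1 and 1). Over the 3 replicates together, a gene with any cluster had a median of 3 clusters, and CELF1 with 16 and QKI with 14 exceeded 96.8% and 95.2% of such genes. Replicate 2 held more CELF1 clusters than the other replicates together, while it held the fewest in PTBP1 and TIA1, so no replicate was highest throughout. The number of clusters does not measure the amount of editing. The 1 PTBP1 cluster of replicate 2 covered 180 bases, as did the 4 of replicate 1 together. It held 18 edited reads, against 16 in replicate 1 and 9 in replicate 3. Replicate 3 had the fewest clusters over all genes, 11367 against 14295 and 15181, and it was also the replicate without MBNL1.

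**Figure D1:**
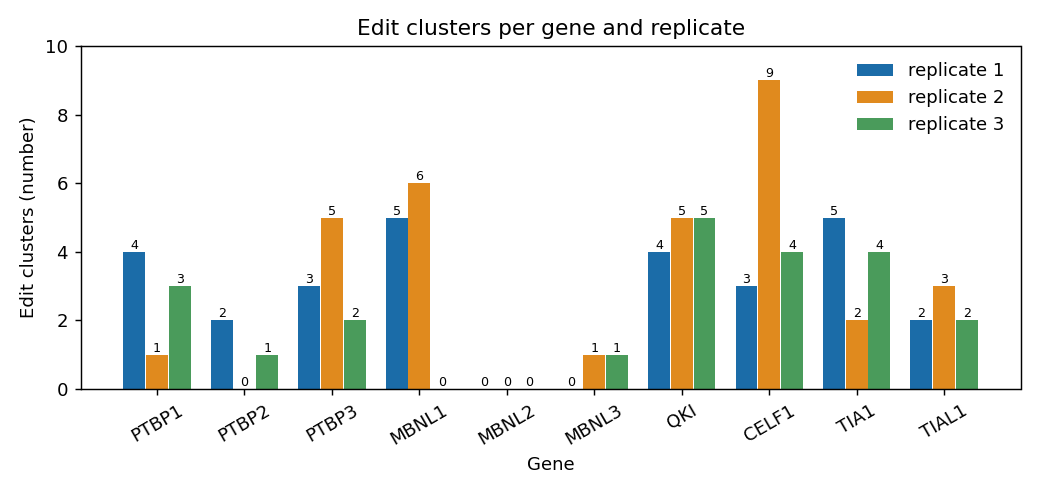
Number of edit clusters (vertical axis, from 0) in each of the 10 genes (horizontal axis), with 1 bar per replicate and the number above it. CELF1 in replicate 2 reached 9 clusters, MBNL1 had 5, 6 and 0, and MBNL2 had none.

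The edit fraction of a gene divides the edited bases in its clusters by the C bases that reads covered there, and it was lowest in PTBP1. It was 0.570%, 0.790% and 0.702% in replicates 1, 2 and 3 (0.687% ± 0.110, SD, n = 3). TIAL1 came next with 0.937%, 1.07% and 0.840% (0.948% ± 0.115). The lowest TIAL1 value lay above the highest of PTBP1, and the highest TIAL1 value lay below the lowest of CELF1, 1.33%, and of MBNL1, 1.46%. The values of different genes in a replicate come from the same library and so are paired. With at most 3 pairs, an exact paired test could not give a two-sided p under 0.10, and none was run. MBNL1 (1.55% ± 0.122, n = 2), CELF1 (1.57% ± 0.234, n = 3), QKI (1.94% ± 0.430, n = 3) and TIA1 (2.14% ± 1.23, n = 3) overlapped in their replicate values. PTBP3 reached 2.85% ± 0.760 (n = 3), PTBP2 3.38% ± 1.15 (n = 2) and MBNL3 4.27% ± 2.53 (n = 2), again with overlapping values, since MBNL3 alone ran from 2.48% to 6.06%. Pooled over the member clusters the edit fraction was 1.13%, 1.31% and 1.5%, and over all clusters it was 0.939%, 0.934% and 0.997%. By the median over clusters the members were higher in replicate 1 only. This median was 1.81%, 1.42% and 1.76% in the members and 1.64%, 1.65% and 1.80% in all clusters.

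The order of the genes followed read depth. PTBP1 and TIAL1 had the deepest clusters, with a median of their mean read depths of 126 and 73.0 reads, and MBNL3 the shallowest, with 6.44. Across the 9 genes Spearman's rho of median depth and edit fraction was -0.817, and across 8518 genes of the series it was -0.779. Genes of 1 replicate share a library. The authors' filter used separate background rates for windows of lower read depth, so that a shallow window needed a stronger signal to pass. Only clusters that passed were analysed. A cluster at low depth also holds few covered C bases, where 1 edited base already gives a high fraction. How far either sets the order of the genes was not tested. Within classes of similar depth the member clusters had medians close to those of all clusters. The members' median was 5.30% against 5.00% at a depth under 10 (18 member clusters), 1.87% against 2.33% at 10 to 20 (22), 1.72% against 1.64% at 20 to 30 (14), 1.28% against 1.39% at 30 to 40 (5), 1.02% against 1.22% at 40 to 50 (5) and 0.758% against 0.784% at 50 or more (18).

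Each member cluster was then set against the median of all clusters of its own replicate and depth class. The ratio had a median of 0.930, 0.924 and 1.01 in replicates 1, 2 and 3, and it was above 1 in 38 of 82 clusters (46.3%), compared with 49.8% of all clusters. PTBP2 was the gene in which every cluster, 3 of 3, lay above its class median, with ratios from 1.12 to 2.47. TIAL1 lay above in 5 of 7 clusters (median ratio 1.02) and QKI in 8 of 14 (1.03). PTBP1 lay above in 2 of 8 clusters (0.820), MBNL1 in 4 of 11 (0.797), TIA1 in 4 of 11 (0.855) and CELF1 in 6 of 16 (0.918). PTBP3 and MBNL3 were evenly divided, with 5 of 10 and 1 of 2.

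**Figure D2:**
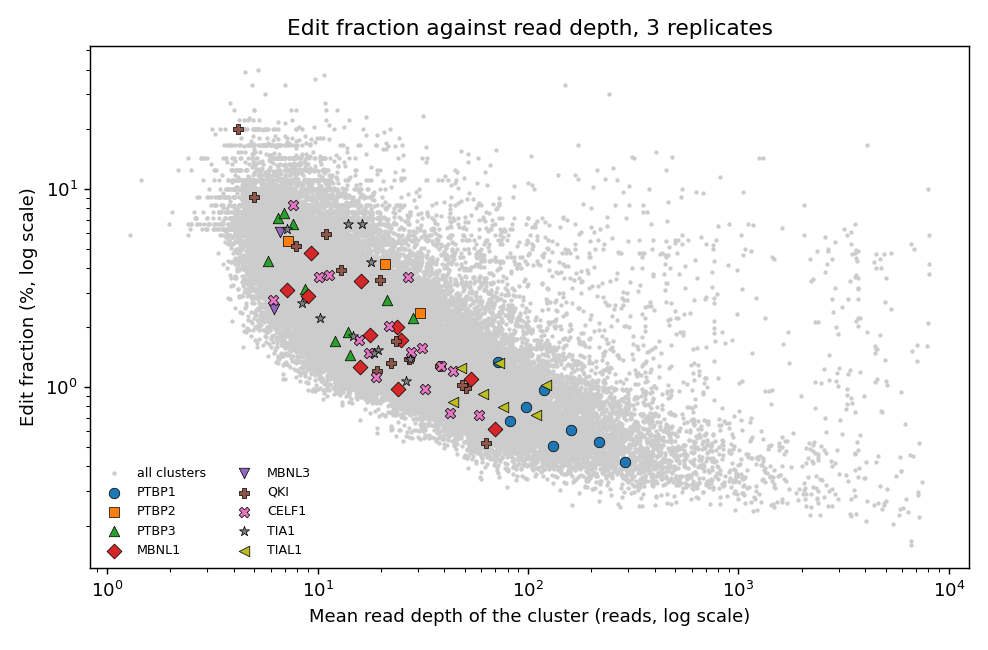
Edit fraction of each cluster in percent (vertical log axis) against its mean read depth in reads (horizontal log axis), with all 40843 clusters of the 3 replicates as grey points and the 82 member clusters as symbols by gene. PTBP1 and TIAL1 sit at the deep, low end and PTBP3, MBNL3 and shallow QKI clusters at the upper left, within the range of the grey points.

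All 82 member clusters lay in exons, whereas 97.9% ± 0.319 of all clusters did (SD, n = 3). The Wilson 95% interval of the members' share reached down to 87.9%, 89.3% and 85.1% in replicates 1, 2 and 3, so the difference was not detectable with so few clusters. The deposited exon numbers count up along the chromosome on both strands, as they did in each of 1811 and 1719 genes on the plus and minus strand, so on the minus strand exon 0 is the one nearest the 3' end. All 8 PTBP1 clusters were in exon 14, 9 of 10 PTBP3 clusters in exon 0, 14 of 16 CELF1 clusters in exon 0, 12 of 14 QKI clusters in exon 20 and 8 of 11 MBNL1 clusters in exon 38. In each case this was the exon nearest the 3' end among those with a cluster. TIA1 and TIAL1 differed from this pattern, with 5 of 11 and 2 of 7 clusters in the 3'-most clustered exon and clusters in 6 and 5 exons. Taking the 7 members with at least 5 clusters, 58 of 77 clusters (75.3%) were in the 3'-most clustered exon, and over 3132 genes with at least 5 clusters the share was 71.5%. Whether these exons are coding or untranslated was not determined, for want of gene models of that build.

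**Figure D3:**
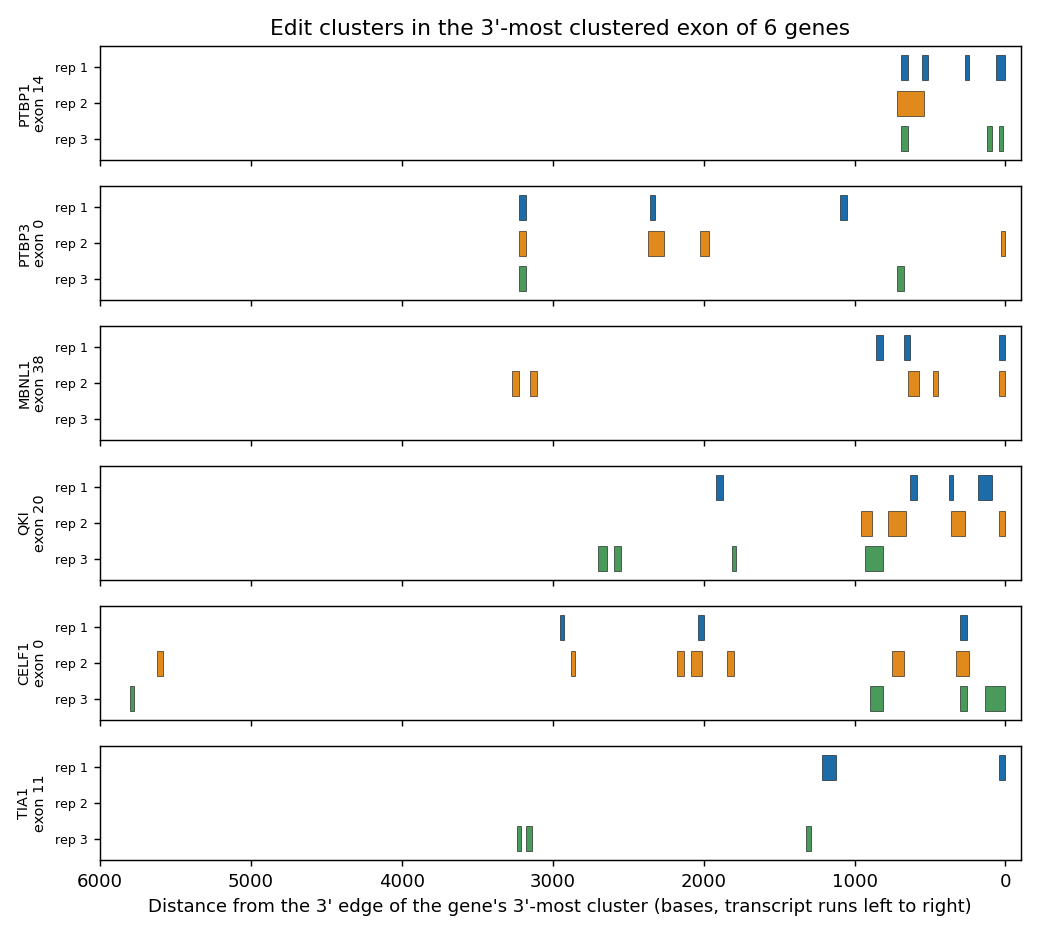
Position of the clusters within the 3'-most clustered exon of PTBP1, PTBP3, MBNL1, QKI, CELF1 and TIA1, 1 lane per replicate. The horizontal axis is the distance in bases from the 3' edge of the gene's 3'-most cluster, with the transcript running left to right and boxes drawn to scale. A CELF1, a PTBP1 and a PTBP3 position recur in all 3 replicates, and other boxes overlap in at most 2.

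Clusters of different replicates that shared 1 or more bases on a strand were joined, and the 82 clusters formed 65 loci. Of these, 3 were found in all 3 replicates, 10 in 2 and 52 in 1. As shares these were 4.62%, 15.4% and 80.0%, and over all 33244 loci they were 4.77%, 11.9% and 83.4%. Counted by clusters, 3 member clusters of each replicate overlapped a cluster of both others, which is 10.7%, 9.38% and 13.6% of the members and compares with 10.6%, 9.86% and 13.1% of all clusters. Clusters with few edited reads recurred less often in the whole series, 2.21% with 1 edited read and 37.1% with at least 4. In the members 1 of 22, 4 of 39, 0 of 10 and 4 of 11 clusters with 1, 2, 3 and at least 4 edited reads recurred. Of the 82 member clusters, 61 rest on 1 or 2 edited reads. Those with 1 were 26.8% of the members and 30.5% of all clusters, and those with 2 were 47.6% and 34.1%. Weighted to the members' numbers of edited reads, 8.53% of all clusters recurred in all 3 replicates, against 9 of 82 member clusters, which are 3 loci seen once in each replicate and so not 9 independent observations.

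The best supported locus lay in exon 14 of PTBP1 at chr19:811400-811609 on the plus strand (coordinates as deposited, build hg19 as named in the submitters' processing notes). PTBP1 is the broadly expressed member of its family, which keeps neuronal exons out of transcripts in cells that are not neurons. Replicate 1 had 2 clusters there, and replicates 2 and 3 had 1 each. Edited reads were 9 of 303 in replicate 1, 18 of 299 in replicate 2 and 4 of 121 in replicate 3, or 2.97%, 6.02% and 3.31%, where reads that span both clusters of replicate 1 are counted in each. The edit fraction there was 0.758%, 0.790% and 0.677% (0.742% ± 0.0584, SD, n = 3). By this measure its relative spread was the smallest of the 3 loci found in all replicates. The value of replicate 1 pools clusters of 0.505% and 1.33%, and the stretches covered differ in length between replicates. By share of edited reads, this locus had 4.10% ± 1.67, a wider relative spread than the CELF1 locus below with 4.67% ± 1.59 (SD, n = 3). A second PTBP1 locus at chr19:812060-812119 was found in replicates 1 and 3, with 5 of 364 and 2 of 220 reads edited and edit fractions of 0.531% and 0.607%. The exact 95% binomial intervals of these read shares, 0.447% to 3.18% and 0.110% to 3.25%, overlapped. A cluster of replicate 3 between them, at chr19:812000-812029, had 3 of 205 reads edited and no counterpart.

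PTBP3, a paralog of PTBP1, held a locus in exon 0 at chr9:114984796-114984840 on the minus strand, the only one with the same start and end in all 3 replicates. Edited reads were 1 of 19, 4 of 39 and 2 of 7 in replicates 1, 2 and 3, and the edit fraction was 1.90%, 2.24% and 4.35% (2.83% ± 1.32, SD, n = 3). The high value of replicate 3 rests on a mean read depth of 5.80. A further PTBP3 locus at chr9:114983881-114983985 had 1 of 10 and 2 of 18 reads edited in replicates 1 and 2. PTBP2, the neuronal paralog whose productive splicing PTBP1 is known to repress, had its main locus in exon 30 at chr1:97279895-97280104 on the plus strand. There, 6 of 85 reads carried 18 edited bases in replicate 1 and 2 of 35 reads carried 13 in replicate 3, for edit fractions of 2.36% and 4.19%. Replicate 2 had no PTBP2 cluster, and since only clusters that passed the filter were analysed, this does not give an edit fraction of 0. The other PTBP2 cluster, in exon 16 of replicate 1, had 3 of 13 reads edited.

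CELF1, which binds GU-rich RNA, held the third locus found in all replicates, in exon 0 at chr11:47487767-47487856 on the minus strand. In each replicate 2 reads were edited, of 48, 59 and 31 reads (4.17%, 3.39% and 6.45%). The edit fraction was 1.57%, 3.61% and 2.04% (2.41% ± 1.07, SD, n = 3), the highest being that of replicate 2, where the cluster was 90 bases long rather than 45 and both edited reads together carried 10 edited bases rather than 2. The CELF1 cluster at chr11:47488202-47488276, seen in replicate 2 only, had 5 of 73 reads edited, the most of any cluster without a counterpart. CELF1 clusters at chr11:47487527-47487661 and chr11:47488337-47488426, in replicate 3 only, had 3 of 21 and 3 of 74 reads edited. Some clusters of different replicates were close without touching, as with chr11:47490377-47490406 in replicate 2 and chr11:47490452-47490481 in replicate 1. When clusters up to 100 bases apart were also counted, a member cluster had a counterpart in 50 of 82 cases (61.0%) rather than 30 (36.6%), and over all clusters these shares were 48.4% and 32.1%. A counterpart in both other replicates within 100 bases was less common among the members, at 11 of 82 (13.4%), than among all clusters, at 20.7%, and this difference was not tested.

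MBNL1, whose protein is sequestered by expanded CUG repeats in myotonic dystrophy, had 2 loci in exon 38 that were shared by replicates 1 and 2. At chr3:152182770-152182874, 3 of 90 and 4 of 96 reads were edited and the edit fraction was 0.617% and 1.10%. At chr3:152183400-152183444, the same 45 bases in both replicates, 1 of 27 and 2 of 29 reads were edited and the edit fraction was 0.980% and 2.00%. Its paralog MBNL3 had 1 cluster in replicate 2, in exon 8, and 1 in replicate 3, in exon 0, each with a single edited read of 8 and 11 reads.

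QKI, a KH-domain protein of the STAR family, had the most clusters after CELF1 but no locus in all 3 replicates. Replicates 2 and 3 shared chr6:163993812-163993961 in exon 20, where 1 of 74 and 3 of 49 reads were edited and the edit fraction was 1.02% and 3.48%. Replicates 1 and 2 shared chr6:163994397-163994501, with 1 of 55 and 2 of 31 reads edited and edit fractions of 0.995% and 1.33%. In exon 18, the clusters of replicate 2 (chr6:163984543-163984572) and replicate 3 (chr6:163984573-163984632) abutted without overlap. The highest edit fraction of any member cluster, 20%, was that of a QKI cluster in replicate 1 at chr6:163992852-163992896 with 6 reads, and it stands for 1 edited base among 5 covered C bases. A QKI cluster with 4 of 20 reads edited at chr6:163992177-163992221 was found in replicate 3 only.

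TIA1 and TIAL1, which are close paralogs, had few recurrent loci. TIA1 shared chr2:70456421-70456450 in exon 33 between replicates 1 and 3, with 1 edited read in each, of 18 and 21. The TIA1 clusters with the most edited reads, 3 each, had no counterpart and lay in exon 11 in replicate 1 (3 of 16 reads) and replicate 3 (3 of 28) and in exon 39 in replicate 2 (3 of 38). The last, at chr2:70475568-70475642, is also named for an exon of C2orf42 in the deposited data and cannot be assigned to either gene alone. TIAL1 shared chr10:121335145-121335219 in exon 0 between replicates 1 and 3, with 5 of 186 and 2 of 103 reads edited and edit fractions of 1.03% and 0.789%. A TIAL1 cluster in exon 2, at chr10:121336589-121336618, had 3 of 71 reads edited in replicate 3 only. In replicate 2 the 3 TIAL1 clusters lay in exons 6, 12 and 16, each with 1 edited read, and none overlapped a cluster of another replicate. Median cluster depths were 16.3 for TIA1 and 73.0 for TIAL1.

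At the 3 loci found in all replicates, edited against other reads were compared for each pair of replicates with two-sided Fisher's exact tests. The tests were run on all 1586 such loci of the series, with Benjamini-Hochberg adjustment over all loci and pairs, and 10 loci, or 0.631%, differed in at least 1 pair at an adjusted p under 0.05. By pair, the share was 0.252% for replicates 1 and 2, 0.315% for 1 and 3, and 0.252% for 2 and 3. None of the 3 member loci did, with an adjusted p of 1 in each of 9 pairs and 0 pairs under an unadjusted p of 0.05. The smallest unadjusted p was 0.0785, for PTBP1 in replicate 1 against replicate 2, by Fisher's exact test. With at most 18 edited reads in a replicate at these loci, the test had little to work with. Of the 1233 loci of the series with at most 18 edited reads in any replicate, 0 differed. A p above the threshold at the member loci therefore does not show that the replicates were alike.

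**Figure D4:**
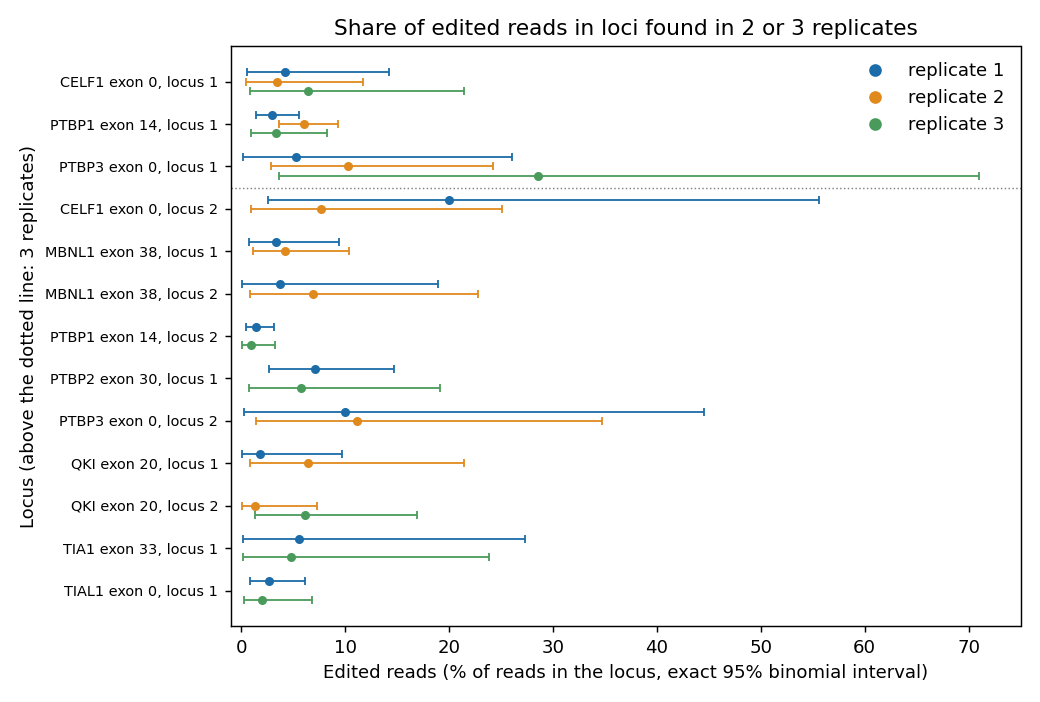
Edited reads as a percent of the reads in each of the 13 member loci found in 2 or 3 replicates (horizontal axis), with 1 point per replicate and its exact 95% binomial interval, which covers counting error only. Loci above the dotted line were found in all 3 replicates, and the intervals of the replicates overlap at each of the 13 loci.

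Member clusters differed in how many edited bases an edited read carried. Over the 82 clusters, 194 of 4653 reads were edited (4.17%, exact 95% interval 3.61% to 4.78%) and held 385 edited bases, or 1.98 per edited read, and over all clusters the ratio was 1.64. The median over clusters ran the other way, 1.61 in the members and 1.67 in all clusters. At least 3 edited bases per edited read were found in 19 of 82 member clusters (23.2%) and in 21.4% of all clusters. QKI had 5 of 14, CELF1 5 of 16, TIAL1 3 of 7, PTBP2 2 of 3 and MBNL3 2 of 2 such clusters. PTBP1 had 1 of 8, MBNL1 1 of 11, TIA1 0 of 11 and PTBP3 0 of 10. The Wilson 95% intervals of these shares were wide, such as 16.3% to 61.2% in QKI and 0% to 25.9% in TIA1. Differences between genes were not tested. The extreme was the QKI cluster of replicate 2 in the shared locus at chr6:163993812-163993961, where 8 edited bases were counted with 1 edited read. In PTBP2 exon 30 the number was 3.00 in replicate 1 and 6.50 in replicate 3, and in exon 12 of MBNL1 a cluster of replicate 1 held 12 edited bases in 2 edited reads. In 22 member clusters (26.8%, against 30.5% of all clusters) a single edited read was counted, with 1 to 8 edited bases. The reads carry no molecular identifiers and may be copies of one molecule, so all intervals cover counting error only.

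Of 23 further splicing regulators and RNA-binding proteins, picked by name, 9 had a cluster. This is not a background rate for the members' 9 of 10. The other 14 had none, among them RBFOX1, RBFOX3, NOVA1, NOVA2, ESRP1, ESRP2 and CELF3 to CELF6, most of which are known for expression in neurons, muscle or epithelia. RBFOX2, the protein in the fusion, had 17, 16 and 16 clusters and 13 loci in all 3 replicates, and reads of the gene and of the introduced construct cannot be told apart. KHDRBS1, which like QKI is a STAR protein, had 8, 6 and 4 clusters and 2 loci in all 3 replicates, at an edit fraction of 0.902% ± 0.183 (SD, n = 3). ELAVL1, which binds AU-rich RNA, had 6, 4 and 4 clusters and 1 such locus (0.973% ± 0.157), and MATR3, a partner of PTBP1, had 4, 5 and 3 clusters and 1 such locus (1.14% ± 0.266). ELAVL2 had 3, 2 and 2 clusters and 1 locus in all 3 replicates, at 7.62% ± 2.22 and a median cluster depth of 7.80.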

How the data were processed

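Edit clusters of 3 replicates of HEK293T cells (HEK293XT by their source) were analysed. The authors called C-to-U positions with SAILOR, tested windows of 30 bases with FLARE at an adjusted p-value threshold of 0.1 and merged windows within 15 bases, each replicate separately. The submitters' processing notes name STAR and hg19. The deposited counts give, for each cluster and unscaled, its edited and covered C bases, its C positions, and its edited and total reads. The authors' fractions are edited bases over covered C bases and edited reads over reads. The authors' mean read depth is a coverage signal left unscaled. The deposited score was computed by the authors as a cumulative negative binomial probability. Windows that failed the filter were not analysed here. Deposited starts were raised by 1 base.

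Counts, fractions, overlaps and Fisher's exact tests were computed with SciPy 1.17.1, pandas 2.3.3 and NumPy 2.4.6 in Python 3.11.15 and drawn with matplotlib 3.10.9. The members, lists and tests were chosen with earlier results of these data known. The rule for named loci was all loci of 3 replicates, loci of 2 replicates with at least 3 edited reads in each, and the single-replicate clusters with the most edited reads (all with at least 3, since 8 tied at 3). Other loci of 2 replicates, ratios to the depth class, edited bases per edited read and the gap of 100 bases were chosen after the values were seen. Alternatives were minimum scores, edited reads, depth, overlap, medians and leaving out replicates. The comparison of edited reads between replicates was also run on simulated data, with changes made only at loci with at least 200 reads in each replicate. There, 53% of 100 loci changed 2-fold and 97% of 100 changed 4-fold were called. Of 1386 unchanged loci, which were of any depth, 0.144% were called. Each member locus of 3 replicates had fewer than 200 reads in some replicate, so the shares of changed loci called do not describe the members.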

Additional observations from a re-analysis of the deposited data

How the results depend on the processing

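The members' recurrence changed most with the score threshold. At a minimum score of 0.99, clusters per replicate fell from 27.3 to 15.7, no member locus was left in all 3 replicates (0 instead of 3, a share of clusters of 0% instead of 11.2%), while 903 of 1586 loci were left over all genes, with a share of clusters of 10.7%. There the members' pooled edit fraction was 1.53% instead of 1.31% and the pooled share of edited reads 5.55% instead of 4.23%. With at least 2 edited reads the members' share found in all 3 replicates was 10.2% (all clusters 13.8%), and with a mean depth of 10 or more 9.72% (13.1%), with 2 member loci in each. PTBP1, PTBP3 and CELF1 each had at least 1 cluster that scored under 0.99 at the recurrent locus. These were PTBP1 with 0.986 in replicate 3 and 0.978 for 1 of 2 clusters in replicate 1, and PTBP3 with 0.984 in replicate 1. CELF1 scored 0.977 in replicate 1 and 0.985 in replicate 3. The share of clusters found in all 3 replicates was 7.49% (all clusters 5.30%) when 50% of each cluster had to be shared. It was 13.5% (21.0%) with a gap of at most 100 bases, chosen after the values were seen. The near equality of members and all clusters (11.2% each) thus did not hold in these settings. The members' share was the higher one with 50% shared and the lower one in the others. At a minimum score of 0.95 the shares were 11.9% and 10.6%. The member shares rest on 0 to 4 loci in these settings, and the differences were not tested. With medians over clusters, averaged over the replicates, the edit fraction was 1.67% and the share of edited reads 6.44%, against 1.70% and 5.74% over all clusters. The members' higher pooled edit fraction was thus not seen in these averages of medians. In edited bases over covered C bases, 57 of 1586 loci (3.59%) differed between replicates, where several edited bases of 1 read count separately. Among loci with identical start and end, 5 of 174 (2.87%) differed, against 10 of 1586 (0.631%) in the main setting. No member locus differed in either, but only 3 and 1 were tested. When replicates were left out in turn, clusters per replicate ranged from 25 to 30, member loci in both remaining replicates from 4 to 8 and their share of clusters from 15.3% to 28.6%. The pooled edit fraction ranged from 1.22% to 1.40% and the share of edited reads from 3.77% to 4.62%. Loci that differed numbered 4 in each, of 2757, 2620 and 3174 tested without replicates 1, 2 and 3 (0.145%, 0.153% and 0.126%). The medians by depth class ranged from 5.09% to 6.36% (under 10), 1.77% to 2.54% (10 to 20), 1.69% to 1.94% (20 to 30), 1.13% to 1.57% (30 to 40), 0.741% to 1.12% (40 to 50) and 0.731% to 0.790% (50 or more). No paired comparison of conditions was possible because the series has 1 group.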
